A study of Mus musculus with 18 samples.

Results

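The 40 genes described here encode the contractile apparatus of striated muscle and the proteins that link membrane excitation to contraction. They were taken as a list by function: 14 thin-filament genes, 8 genes of light chains and myosin-binding proteins, 4 of titin and the M-band, 8 of the Z-disc and desmin, 4 of calcium handling and 2 creatine kinases. All 40 were found among the 47728 genes of the bulk counts and the 28692 genes of the single-cell matrices. Of these, 38 passed the filter on low counts that left 17571 genes for testing in bulk. The 2 others were Myl2, a regulatory light chain of slow and ventricular muscle that reached at most 1.20 CPM (counts divided by the TMM-adjusted total of their library, on one shared scale), and Ckmt2, the mitochondrial creatine kinase of muscle, with 0 counts in all 15 bulk libraries.

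In a sarcomere, thin filaments of actin, tropomyosin and troponin are anchored at the Z-disc and slide past myosin filaments that are held by titin and the M-band. Depolarisation is sensed by the voltage-gated calcium channel of the transverse tubule, which opens the ryanodine receptor, and the calcium released binds troponin C until a pump returns it to the sarcoplasmic reticulum. Most of these proteins exist as fast, slow or cardiac paralogs, and developing skeletal muscle passes through a phase in which cardiac paralogs such as Actc1 and Tnnt2 are used. Myogenic factors of the Myod1 and Myog kind bind the short sequence called the E-box and switch many of these genes on as myoblasts differentiate.

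The bulk RNA sequencing compared 5 groups of 3 libraries. iPax3 and iPax7 were mouse progenitors made from pluripotent stem (ES) cells, sorted from embryoid bodies as Vcam1+ Flk1- cells and expanded for 3 passages in doxycycline (Dox) and bFGF. Whether each line was 1 clone is not given in the sources used here. Emb (E10.5) and Fet (E14.5) were myoblasts of the strain labelled My5Cre Rosa26YFP, a Cre line with a YFP reporter, and Neo were satellite cells from hindlimb muscle of Pax7-ZsGreen reporter mice at postnatal day 3. Droplet single-cell RNA sequencing covered 1 library of adult satellite cells (Sat, Pax7-ZsGreen, tibialis anterior, 3 months) and iPax3 cells. Nothing in the labels says that replicate libraries came from separate cultures or animals, so the p-values cover only how far these samples vary, and that variation may be technical. Engrafted and re-isolated cells were not analysed here.

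Several libraries stood apart, and this bears on every comparison below. Library totals ran from 516504 (Fet replicate 1) to 56275318 counts (iPax3 replicate 1), and Emb replicate 1 had 17048 genes with a count against 12850 and 12944 in the other Emb libraries. The library labelled iPax7 replicate 1 held Pou5f1, Nanog and Sox2, regulators of pluripotency, at 550, 511 and 505 CPM, while its Pax7 level was 0.989 CPM, where iPax7 replicates 2 and 3 held 111 and 349 CPM. Its 6 pluripotency markers summed to 3372 CPM, against at most 58.8 CPM in any library of iPax3, Emb, Fet or Neo. Neo libraries held Pax7 at 0.495, 4.08 and 5.12 CPM, while 8 endothelial markers summed to 2097 to 2735 CPM there against 211 to 513 in Fet, with none of the 8 at 0. The part of these libraries and markers in the results was not tested, except where a value without a library is given.

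By library, the 40 genes together held 0.0963 to 0.645% of all counts. Their share was 0.460, 0.574 and 0.337% in the iPax3 libraries and 0.0963, 0.616 and 0.645% in the iPax7 libraries. Among tissue libraries, those of Emb held 0.120, 0.209 and 0.227%, those of Fet 0.197, 0.222 and 0.210%, and those of Neo 0.135, 0.147 and 0.124%. The 3 iPax3 libraries and 2 of the 3 iPax7 libraries thus lay above every tissue library, and iPax7 replicate 1 lay below all of them. Since the share is a sum, it is carried by the genes with most counts, in iPax3 above all Tpm1 and Tpm2. Tpm1 alone held 170796, 163649 and 94651 of the 258724, 237228 and 130688 member counts in the iPax3 libraries. In the Fet libraries it held 313, 18288 and 9526 of 1017, 71020 and 28290. Both tropomyosin genes also have forms outside striated muscle, and the bulk share without them was not computed. The mean over genes of log2 CPM ordered the libraries differently. That mean was 3.16, 3.32 and 1.15 in iPax3, 1.01, 4.51 and 4.53 in iPax7, 1.57, 0.45 and 0.41 in Emb, 1.77, 3.02 and 2.56 in Fet, and 0.71, 1.24 and 1.76 in Neo. In bulk RNA, fewer cells of a type and less RNA per cell cannot be told apart.

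**Figure D1:**
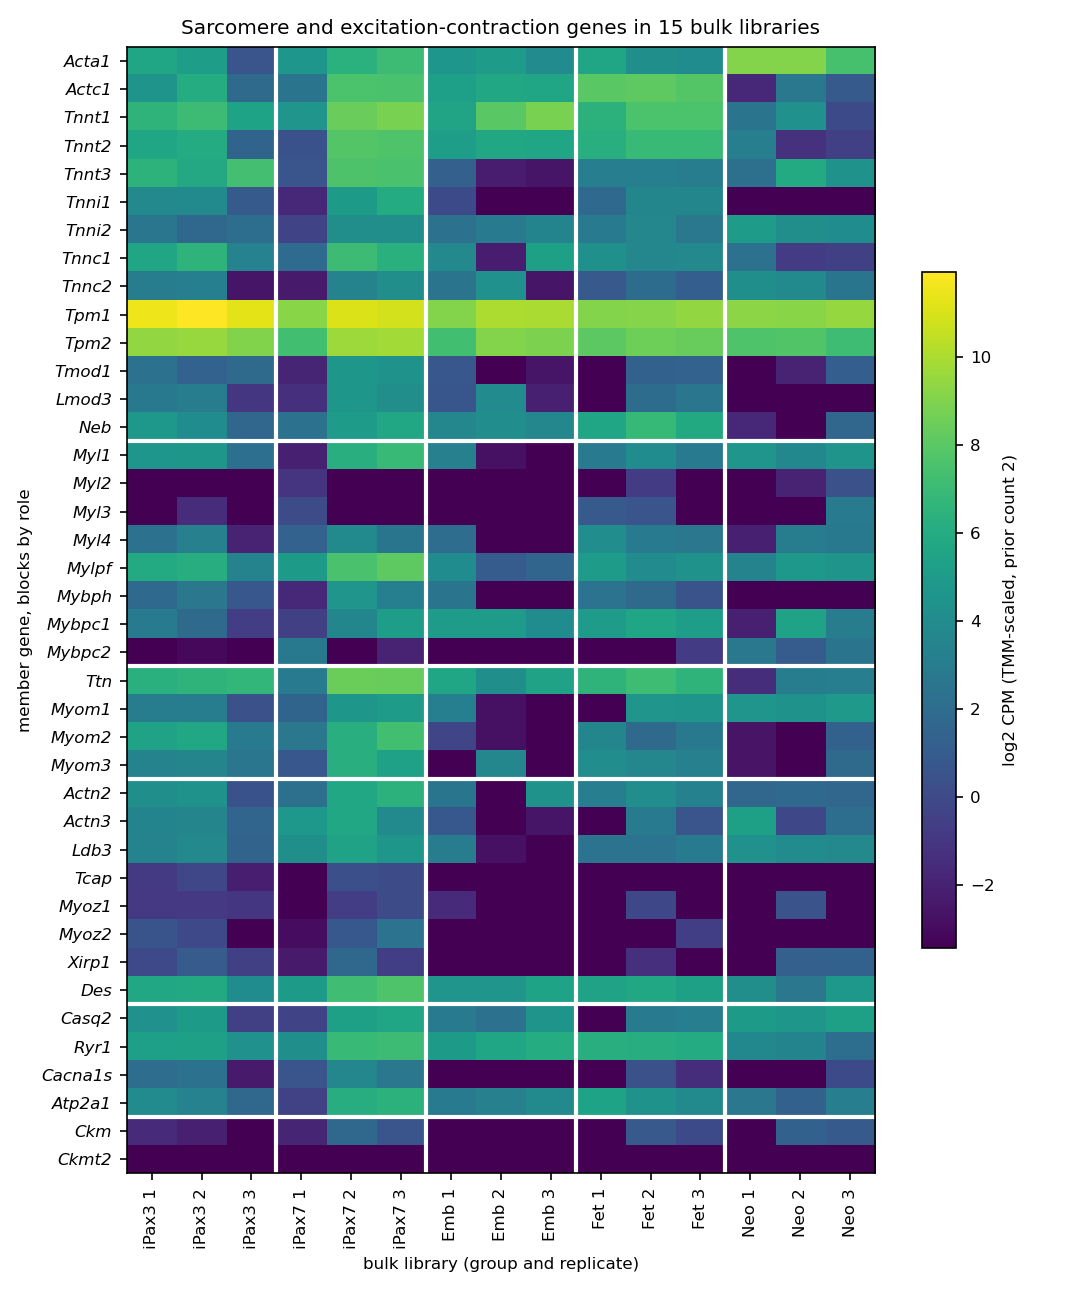
Levels of the 40 genes (rows, in blocks by role) in the 15 bulk libraries (columns, by group), with colour as log2 CPM at a prior count of 2. iPax7 replicates 2 and 3 are bright in most rows, while iPax7 replicate 1 and iPax3 replicate 3 are darker than the other libraries of their groups, and Emb and Neo hold the most dark cells.

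The pair of low iPax libraries set the spread of most members. Myog, the regulator of myoblast differentiation, was lowest in the same pair, with 96.6, 72.4 and 30.4 CPM in iPax3 and 1.58, 563 and 517 CPM in iPax7. Myod1, which acts before it, stood at 9.35, 6.05 and 0.264 CPM in iPax3 and 0.0366, 27.1 and 43.9 CPM in iPax7. In tissue, Myog was at 108, 610 and 784 CPM in Emb, 623, 310 and 387 in Fet, and 104, 212 and 86.7 in Neo. The 7 markers of differentiating muscle, Myog among them, summed to 301 to 533 CPM in iPax3, 39.6 to 1880 in iPax7, 387 to 1257 in the Emb libraries, 1371 to 1580 in the Fet libraries and 583 to 707 in the Neo libraries. Their part in the results was not tested. Not every member was low in the low libraries: iPax3 replicate 3 had the highest iPax3 value of Tnnt3 and of Ttn, and iPax7 replicate 1 had the highest iPax7 value of Mybpc2.

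Between the lines iPax7 and iPax3, none of the 38 tested members was called in edgeR's quasi-likelihood test at a Benjamini-Hochberg adjusted p under 0.05, where 0.074% of all genes were called, 0.0569% as higher and 0.0171% as lower. The count was also 0 in DESeq2, while 1083 of all 17571 genes had an unadjusted p under 0.05. The fitted log2 difference, iPax7 minus iPax3, was positive for 36 of 38 members, with a median of 1.57 beside 0.09 over all genes. Libraries of the 2 lines did not overlap for 3 members (18.8% of all genes did not). These were Tpm1, lower in iPax7, and Actn3 and Ldb3, higher there. The fitted difference of Des was 1.59 ± 0.65 (log2, SE) and that of Ryr1 was 1.51 ± 0.60, with adjusted p of 0.702 and 0.677.

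Against Emb, 5 members rose in iPax3 and 7 in iPax7, and none fell in either comparison. In iPax3 these were Tnnt3, Tpm1, Mylpf, Myom2 and Cacna1s, where 17% of all genes were called, 9.34% as higher and 7.64% as lower. In iPax7 they were Tnnt3, Tnni1, Mylpf, Myom2, Actn3, Des and Cacna1s, where 14% of all genes were called, 8.51% as higher and 5.54% as lower. Of 38 members, 5 is near the background share in iPax3. Both comparisons use the same Emb libraries. Fitted log2 differences were positive for 29 of 38 members in iPax3 and for 37 of 38 in iPax7. Their medians were 1.27 and 2.62, or 1.06 and 2.54 with the 7 genes at 0 counts in Emb set to their bounds, beside 0.24 and 0.36 over all genes. Groups did not overlap for 12 members between iPax3 and Emb (44.9% of all genes) and for 8 between iPax7 and Emb (33% of all genes). Without Emb replicate 1 the counts rose to 12 in each comparison, and both then held Myl1, Myl4, Mybph, Myom1 and Ldb3, with Tnni1 and Actn3 also among the 12 in both. For fits without a library and for DESeq2, here and below, the share of all genes called was not computed. A change in such a count may therefore be shared by all genes. The count of the first comparison fell to 3 without iPax3 replicate 1, iPax3 replicate 2 or Emb replicate 3, and to 4 without Emb replicate 2. That of the second fell to 3 without iPax7 replicate 2, iPax7 replicate 3 or Emb replicate 3 and to 4 without Emb replicate 2, and it rose to 10 without iPax7 replicate 1.

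Markers of other cell types also moved in these comparisons. The 6 fibroblast markers summed to 335 to 468 CPM in Emb, against 3.93 to 8.10 CPM in iPax3 and 8.65 to 40.5 CPM in iPax7. The 6 markers of tendon and cartilage summed to 882 to 1331 CPM in Emb, 49.7 to 129 CPM in iPax3 and 38.0 to 39.9 CPM in iPax7. For the 7 neural and Schwann markers the sums were 256 to 411, 8.09 to 125 and 30.7 to 436 CPM. In iPax3 minus Emb, 4 of 6, 4 of 6 and 5 of 7 of these fell, where 7.64% of all genes were called as lower. In iPax7 minus Emb 3 of 6, 4 of 6 and 3 of 7 fell, where 5.54% were, and none of these 3 lists held a rise. Of the 8 endothelial markers 4 fell in iPax3 and 3 in iPax7. Of the 8 markers of smooth muscle and pericytes, 1 rose and 3 fell in iPax3, and 2 rose and 2 fell in iPax7. In the cardiac list 2 rose and 1 fell in each comparison. No fibroblast, tendon or cartilage marker was at 0 in an Emb library, and at most 1 neural marker was. The same lists were higher still in Fet for fibroblasts (1079 to 1449 CPM) and for tendon and cartilage (1705 to 3794 CPM). Their part in the comparisons of the lines with Emb and Fet was not tested.

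Against Fet, a single member rose in iPax3 and none in iPax7. The member was Tpm1, where 8.53% of all genes were called, 2.85% as higher and 5.68% as lower. In iPax7 minus Fet, 3.7% of all genes were called, 0.95% as higher and 2.75% as lower, and 3103 had an unadjusted p under 0.05. DESeq2 called 3 members there, Tnnt3, Tpm1 and Mylpf, and edgeR called 4 without iPax7 replicate 1, namely these and Tpm2. Median log2 differences of the members were 0.19 for iPax3 and 1.69 for iPax7, beside 0.03 and 0.15 over all genes. They were positive for 22 and 33 of 38 members. With other size factors (RLE) the iPax3 median was 0.05, with 20 positive, and the median of all genes moved by -0.14. Groups did not overlap for 12 members in iPax3 minus Fet (51.4% of all genes) and for 4 in iPax7 minus Fet (34.3%). Both comparisons use the same Fet libraries.

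Between the tissue stages, no member was called in Fet minus Emb, and 1 rose and 3 fell in Neo minus Fet. In Fet minus Emb 3.65% of all genes were called, 2.89% as higher and 0.763% as lower, 3872 genes had an unadjusted p under 0.05, and DESeq2 called 2 members, Tnni1 and Myom2. Without Emb replicate 1, edgeR called 9 members there, all higher in Fet: Tnnt3, Tnni1, Myl1, Myl4, Mylpf, Mybph, Myom1, Myom2 and Ldb3. The share of all genes called in that fit was not computed. The median log2 difference was 1.58, or 1.31 with bounds, beside 0.18 over all genes, with 30 of 38 positive and 8 members not overlapping (24.1% of all genes). In Neo minus Fet, Acta1 rose and Actc1, Neb and Ryr1 fell, where 2.37% of all genes were called, 1.37% as higher and 1% as lower. The median there was -1.10, or -0.91 with bounds, beside -0.14 over all genes, with 15 of 38 positive and 21 members not overlapping (27.9% of all genes). All 4 calls were lost without Fet replicate 2, Fet replicate 3 or Neo replicate 1. One call (Actc1) was left without Neo replicate 2, and 2 were left without Neo replicate 3 (Acta1, Neb) or Fet replicate 1 (Actc1, Neb).

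**Figure D2:**
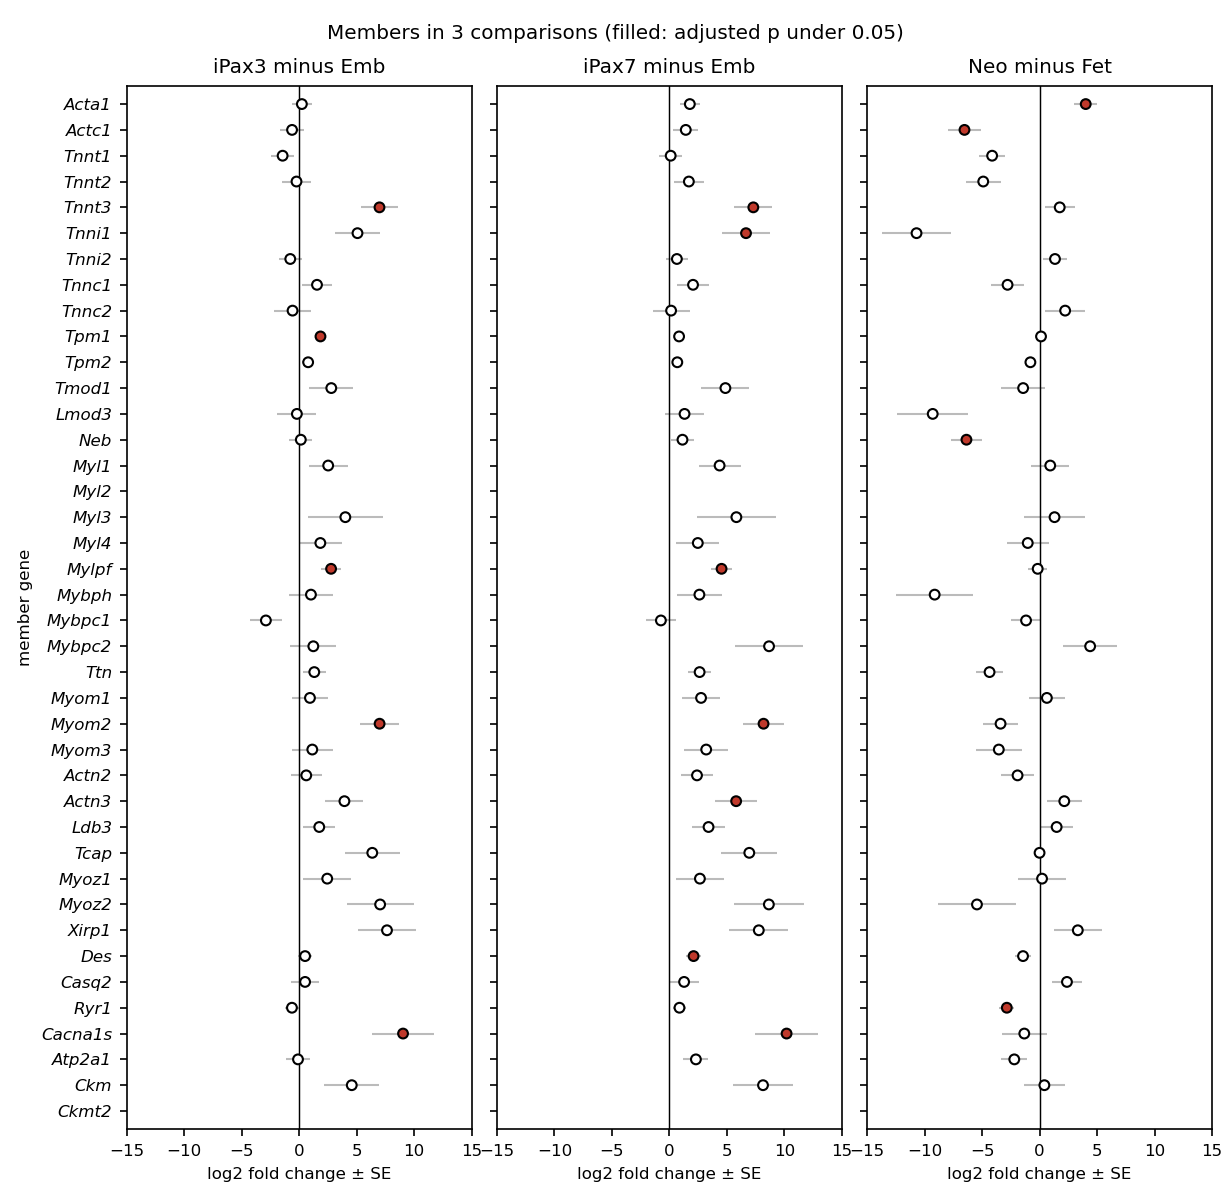
Fitted log2 fold changes (horizontal axis, points) with their standard errors (bars) for the 38 tested members (rows, by role) in iPax3 minus Emb, iPax7 minus Emb and Neo minus Fet, with filled points at an adjusted p under 0.05. Against Emb, 29 and 37 of 38 points lie to the right of 0, while in Neo minus Fet 15 do; points of genes at 0 counts in a group (Cacna1s in Emb, for example) are fitted values and not bounds.

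Among the thin-filament genes, the level of Acta1 separated Neo from all other groups, while that of Actc1 separated Neo from Emb and Fet. Acta1 (ENSMUSG00000031972, GRCm38 chromosome 8, 123891769 to 123894751, minus strand), the actin of adult skeletal muscle, stood at 531, 536 and 177 CPM in Neo. Its values were 47.3, 34.9 and 1.42 CPM in iPax3, 24.4, 84.3 and 136 in iPax7, 24.3, 31.3 and 15.7 in Emb, and 48.4, 18.2 and 16.5 in Fet. Every Neo library was above every other library. Actc1 (ENSMUSG00000068614, chromosome 2, 114047282 to 114053548, minus strand), the actin of heart and of embryonic skeletal muscle, showed the reverse order between Fet and Neo. It stood at 258, 272 and 225 CPM in Fet and at 0.212, 6.36 and 1.81 CPM in Neo, with 38.3, 55.3 and 49.1 in Emb. Its iPax3 values were 23.0, 65.9 and 3.61 CPM and its iPax7 values 5.46, 193 and 184 CPM, so that both lines overlapped Emb and lay below Fet. Both also overlapped Neo, through iPax3 replicate 3 and iPax7 replicate 1. In Neo minus Fet, Acta1 rose by 4.02 ± 0.98 (log2, SE, adjusted p 0.0441) and Actc1 fell by 6.53 ± 1.4 (adjusted p 0.0265). Leaving out Fet replicate 1, 2 or 3 or Neo replicate 1 or 2 ended the call of Acta1 (adjusted p 0.0753 to 0.212). Leaving out Fet replicate 2 or 3 or Neo replicate 1 or 3 ended that of Actc1 (adjusted p 0.064 to 0.0807). Both calls also ended without the low-count filter (adjusted p 0.163 and 0.104). The 2 proteins are near-identical, and how reads that match both genes were counted is not given in the sources used here. In Neo replicate 1, with 7503 counts of Acta1, Actc1 had 3 counts. The 8 endothelial markers given above were also higher in Neo than in Fet, and their part in this result was not tested.

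Within each library, Actc1 made up 31.6 to 70.7% of sarcomeric actin counts per kilobase of exon in iPax3, and 17.5 to 68.5% in iPax7. The Emb libraries held 59.9 to 74.7%, the Fet libraries 83.5 to 93.4% and the Neo libraries 0.0379 to 1.11%. As means these were 55.5% ± 20.96 (SD, n = 3), 47.4% ± 26.6, 65.8% ± 7.89, 89.9% ± 5.58 and 0.704% ± 0.582. The 3 Fet libraries lay above all others and the 3 Neo libraries below all others, and iPax3 and iPax7 overlapped Emb. Shares of isoforms were not tested, since 3 libraries against 3 cannot reach an exact permutation p below 0.10.

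The promoters of the actin pair, which moved in opposite directions, and of Mylpf and Cacna1s, which rose in both lines against Emb, are shown to compare their E-boxes. Each is the 250 bases before the RefSeq start on the gene's strand (GRCm38.p6), and capitals mark each match to the E-box CANNTG. RefSeq starts differ from the ends of the GENCODE gene spans printed in this report. Against those spans, the Actc1 and Mylpf windows lie inside the gene, the Cacna1s window runs into it and the Acta1 window stops short of it. Distances below are from the RefSeq start. The windows are chr8:123894776-123895025 (minus strand) for Acta1, chr2:114052876-114053125 (minus) for Actc1, chr7:127211358-127211607 (plus) for Mylpf and chr1:136052561-136052810 (plus) for Cacna1s.
Acta1: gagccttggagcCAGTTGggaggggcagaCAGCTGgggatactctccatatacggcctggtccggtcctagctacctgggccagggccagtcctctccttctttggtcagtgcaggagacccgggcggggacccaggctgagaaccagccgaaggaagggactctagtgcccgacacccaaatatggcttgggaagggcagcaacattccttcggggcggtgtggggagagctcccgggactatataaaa
Actc1: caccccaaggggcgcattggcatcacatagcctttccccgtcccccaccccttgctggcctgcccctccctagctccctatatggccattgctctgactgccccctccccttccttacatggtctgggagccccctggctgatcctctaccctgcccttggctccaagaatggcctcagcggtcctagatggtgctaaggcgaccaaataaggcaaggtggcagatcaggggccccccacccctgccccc
Mylpf: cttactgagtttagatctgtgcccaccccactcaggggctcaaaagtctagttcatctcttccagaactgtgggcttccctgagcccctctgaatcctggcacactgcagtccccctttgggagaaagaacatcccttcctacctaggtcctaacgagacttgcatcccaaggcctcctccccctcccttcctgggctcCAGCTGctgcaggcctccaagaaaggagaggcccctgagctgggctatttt
Cacna1s: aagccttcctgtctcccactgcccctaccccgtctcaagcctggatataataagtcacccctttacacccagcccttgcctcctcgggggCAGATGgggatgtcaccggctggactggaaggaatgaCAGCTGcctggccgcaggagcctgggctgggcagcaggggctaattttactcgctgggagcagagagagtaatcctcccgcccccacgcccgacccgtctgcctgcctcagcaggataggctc
Acta1 holds 2 E-boxes, starting 238 and 221 bases before the start, and Cacna1s also 2, at 160 and 123 bases. Mylpf holds 1, at 51 bases before the start, and these letters do not occur in the window of Actc1. Both actin windows hold a CArG box, the sequence bound by serum response factor.

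RefSeq promoter entries matched 31 of the 40 members. Of these, 26 (83.9%) held at least 1 E-box in the 250 bases, against 69.3% of all 27025 promoters searched the same way. The MCAT element CATTCC, bound by TEAD factors, occurred in 10 (32.3%, against 14.4% of all). A MEF2 site occurred in 4 (12.9%, against 3.42%) and a CArG box in 5 (16.1%, against 1.62%), namely Acta1, Actc1, Ldb3, Myl3 and Myom1. The letters TATAA were found in 10 (32.3%, against 25.8%). Both strands were searched, matches of different motifs could overlap, and a match describes letters, not a bound site.

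Troponin T, which ties the troponin complex to tropomyosin, set both iPax lines apart from Emb through its fast form. Tnnt3 (ENSMUSG00000061723, chromosome 7, 142498836 to 142516009, plus strand), its fast form, stood at 91.8, 56.8 and 163 CPM in iPax3 and at 1.43, 202 and 185 CPM in iPax7. In Emb it was at 2.32, 0.114 and 0.0736 CPM, which rest on 30, 2 and 1 counts. Fet held 8.65, 9.17 and 8.13 CPM and Neo 4.53, 61.2 and 21.97 CPM. All iPax3 libraries lay above all Emb and Fet libraries, whereas iPax7 replicate 1 lay within the range of Emb. Tnnt3 rose by 6.98 ± 1.62 in iPax3 (adjusted p 0.00957) and by 7.3 ± 1.64 in iPax7 (adjusted p 0.0108) against Emb. The iPax7 call ended without the low-count filter (adjusted p 0.0508).

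The slow form Tnnt1 and the cardiac form Tnnt2 did not separate the lines from Emb. Tnnt1 stood at 95.3, 139 and 44.5 CPM in iPax3, 23.5, 345 and 451 in iPax7, 46.0, 254 and 459 in Emb, 84.7, 194 and 190 in Fet, and 5.52, 20.2 and 0.903 in Neo. Tnnt2 stood at 48.3, 64.7 and 2.74 CPM in iPax3, 1.28, 230 and 210 in iPax7, 34.1, 53.3 and 48.9 in Emb, 77.8, 119 and 118 in Fet, and 8.77, 0.326 and 0.602 in Neo. For both genes every Neo library lay below every Fet library, with fitted differences of -4.13 ± 1.13 and -4.90 ± 1.52 and adjusted p of 0.075 and 0.105. Of troponin T counts per kilobase, Tnnt3 made up 56.9% ± 25.0 (SD, n = 3) in iPax3 and 27.3% ± 17.3 in iPax7. The Emb mean was 1.85% ± 3.14, the Fet mean 6.75% ± 2.94 and the Neo mean 73.8% ± 27.0. The Tnnt3 share in iPax3 (33.5 to 83.3%) lay above that in Fet (4.81 to 10.1%) and Emb (0.0217 to 5.48%) in every library. In Neo it ranged from 44.0 to 96.6% and overlapped iPax3.

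**Figure D3:**
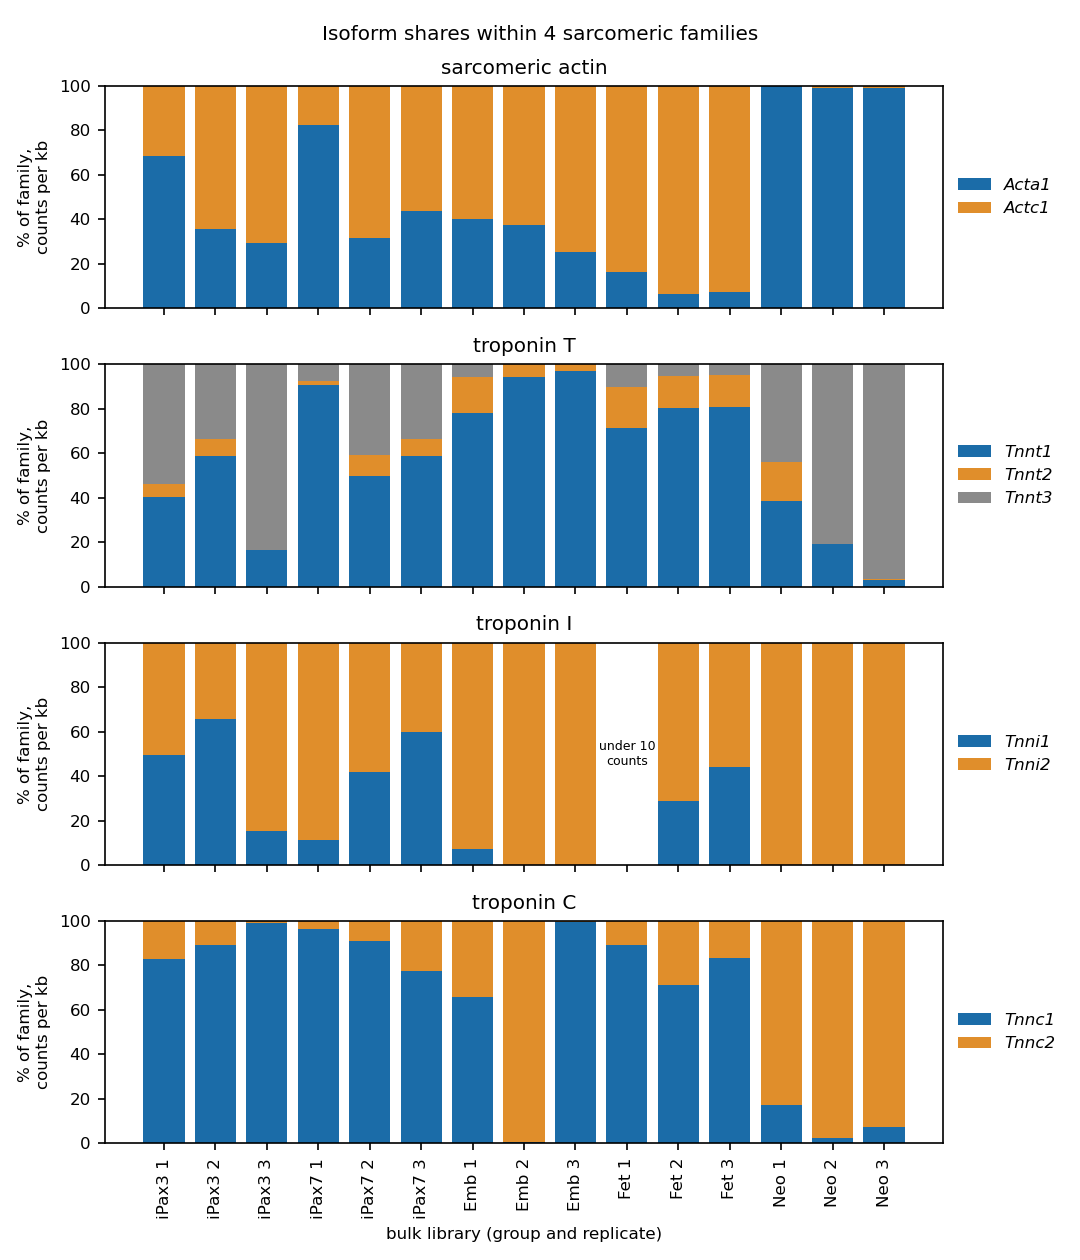
Shares of each form within 4 families (vertical axis, % of the family's counts per kilobase of exon, stacked bars) in the 15 bulk libraries (horizontal axis). Actc1 is 83.5% or more of actin in the 3 Fet libraries and at most 1.11% in the 3 Neo libraries, and Tnnt3 is at most 10.1% of troponin T in all Emb and Fet libraries.

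For troponin I, the inhibitory subunit, and troponin C, the calcium sensor, the single call was of Tnni1 in iPax7 minus Emb. Tnni1 (ENSMUSG00000026418, chromosome 1, 135779434 to 135810989, plus strand), the slow inhibitory subunit, stood at 13.9, 15.3 and 1.79 CPM in iPax3 and 0.220, 30.2 and 63.3 in iPax7. In Emb it was at 0.927, 0 and 0 CPM, in Fet at 3.46, 12.1 and 12.2, and in all 3 Neo libraries at 0. It rose by 6.66 ± 2.06 in iPax7 against Emb (adjusted p 0.045), though iPax7 replicate 1 lay within the Emb range. The call ended without iPax7 replicate 2 or 3 or Emb replicate 2 or 3 (adjusted p 0.0783 to 0.127). In iPax3 the fitted difference was 5.07 ± 1.92 (adjusted p 0.0832), with no overlap. Over its 3 libraries Neo held 0 counts of Tnni1 against 571 in Fet, at least 94.7-fold lower, with an adjusted p of 0.0804. DESeq2 called this difference, as did edgeR without the low-count filter. The bound takes 3 counts over the group as the floor and covers counting error only.

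Tnni2, the fast inhibitory subunit, was detected in all 15 libraries. It stood at 5.86, 3.29 and 4.19 CPM in iPax3, 0.733, 17.5 and 17.8 in iPax7, 4.87, 7.09 and 10.96 in Emb, 6.92, 12.4 and 6.42 in Fet, and 31.8, 17.95 and 16.2 in Neo. Neo lay above Fet in every library, at 1.34 ± 1.01 (adjusted p 0.529). Tnni1 made up 43.6% ± 25.9 of troponin I counts per kilobase in iPax3, 37.5% ± 24.6 in iPax7, 2.45% ± 4.24 in Emb and 36.5% ± 10.8 (n = 2) in Fet. A family needed 10 counts in a library to be given a share, and Fet replicate 1 had fewer.

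Tnnc1, the slow and cardiac troponin C, stood at 50.7, 94.4 and 10.4 CPM in iPax3, 3.77, 138 and 79.3 in iPax7, 13.8, 0.114 and 39.4 in Emb, 19.0, 12.5 and 13.8 in Fet, and 4.88, 0.490 and 0.602 in Neo. Its fast counterpart Tnnc2 stood at 8.07, 8.96 and 0.0791 CPM in iPax3, 0.110, 10.7 and 17.5 in iPax7, 5.49, 20.02 and 0.0736 in Emb, 1.73, 3.93 and 2.14 in Fet, and 18.2, 14.2 and 5.72 in Neo. The Emb libraries disagreed on the form: Tnnc1 was 65.8, 0.437 and 99.8% of troponin C per kilobase in replicates 1 to 3. In Neo, Tnnc2 made up 90.9% ± 7.39 (SD, n = 3), while Tnnc1 made up 90.3% in iPax3 and 88.3% in iPax7 on average. Neither gene was called in any of the 7 comparisons.

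Tropomyosin, which covers the myosin-binding sites of actin, is not confined to striated muscle: Tpm1 and Tpm2 also give forms found in smooth muscle and other cells, and gene counts do not separate these. Tpm1 (ENSMUSG00000032366, chromosome 9, 67022590 to 67049406, minus strand) stood at 2989, 3901 and 2494 CPM in iPax3 and 591, 2211 and 1871 in iPax7. It was at 538, 1039 and 1029 CPM in Emb, 541, 557 and 679 in Fet, and 613, 597 and 731 in Neo. All iPax3 libraries lay above all 12 others. Tpm1 rose in iPax3 by 1.85 ± 0.38 against Emb (adjusted p 0.00409) and by 2.40 ± 0.39 against Fet (adjusted p 0.000874), and both calls held when any 1 library was left out. In iPax7 minus Fet it was at 1.39 ± 0.38 with an adjusted p of 0.052. Tpm2 stood at 702, 764 and 526 CPM in iPax3, 152, 833 and 891 in iPax7, 157, 533 and 473 in Emb, 268, 371 and 326 in Fet, and 205, 212 and 141 in Neo, and was not called. The 8 markers of smooth muscle and pericytes summed to 38.9 to 535 CPM in iPax3, 369 to 810 in iPax7, 113 to 187 in Emb and 279 to 396 in Fet. None of the 8 was at 0 in iPax3 or iPax7, up to 3 were at 0 in an Emb library and up to 1 in a Fet library, and their part in the result was not tested.

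The remaining thin-filament genes regulate filament length. Neb (ENSMUSG00000026950, chromosome 2, 52136647 to 52378474, minus strand), the giant protein nebulin, stood at 48.4, 114 and 58.9 CPM in Fet and 0.212, 0 and 3.01 CPM in Neo. Its values in the other groups were 27.2, 15.99 and 3.03 CPM in iPax3, 5.02, 31.9 and 55.6 in iPax7, and 12.4, 17.0 and 12.5 in Emb. Neb fell by 6.36 ± 1.33 in Neo against Fet (adjusted p 0.0177), a call that ended without Fet replicate 2 or 3 or Neo replicate 1 or 2 (adjusted p 0.0537 to 0.0967). Tmod1, which caps the pointed end, and Lmod3, a leiomodin that nucleates filaments, were not called. Lmod3 had 0 counts in Neo against 210 in Fet, at least 34.8-fold lower, with an adjusted p of 0.123.

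Of the 8 light chain and myosin-binding genes, 1 was called. Mylpf (ENSMUSG00000030672, chromosome 7, 127208890 to 127214298, plus strand), the regulatory light chain of fast muscle, stood at 60.8, 71.1 and 10.8 CPM in iPax3 and 31.1, 183 and 272 in iPax7. It was at 16.1, 1.94 and 2.87 CPM in Emb, 31.1, 15.4 and 21.9 in Fet, and 10.6, 26.4 and 22.6 in Neo. All iPax7 libraries lay above all Emb libraries, while iPax3 replicate 3 lay below Emb replicate 1. It rose by 4.54 ± 0.95 in iPax7 (adjusted p 0.00613) and by 2.77 ± 0.88 in iPax3 (adjusted p 0.0404) against Emb. The iPax3 call ended without iPax3 replicate 1 or 2 or Emb replicate 2 or 3 (adjusted p 0.107 to 0.129), and without the low-count filter (adjusted p 0.0987).

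Myl1, the essential light chain of fast fibres, varied more between libraries of 1 group. It stood at 24.6, 25.7 and 4.35 CPM in iPax3, 0.147, 77.4 and 119 in iPax7, 9.50, 0.0572 and 0 in Emb, 6.92, 16.3 and 7.13 in Fet, and 23.3, 13.4 and 22.6 in Neo. Emb replicate 1 was the single Emb library with more than 1 CPM, and adjusted p against Emb were 0.328 for iPax3 and 0.121 for iPax7. Myl4, an essential light chain of embryonic muscle and the atrium, ranged from 0 to 17.3 CPM with its highest value in Fet replicate 1. Myl3, the slow and ventricular form, reached at most 7.22 CPM, in Neo replicate 3.

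Mybpc1, the slow myosin-binding protein C, was lower in iPax3 than in Emb and Fet but was not called by edgeR. It stood at 6.91, 3.50 and 0.553 CPM in iPax3 against 32.1, 33.8 and 16.2 in Emb and 31.1, 49.6 and 34.3 in Fet, with no overlap. The fitted differences were -2.90 ± 1.4 and -3.39 ± 1.43 with adjusted p of 0.165 and 0.16, while DESeq2 called the difference from Fet. In iPax7 it was at 0.586, 12.1 and 36.5 CPM and in Neo at 0.141, 42.6 and 8.43 CPM. Mybpc2, the fast form, was at 6.81, 0 and 0.171 CPM in iPax7 and at 6.58, 1.96 and 5.42 CPM in Neo, and at no more than 0.499 CPM in iPax3, Emb and Fet. Mybph, a related myosin-binding protein, had 0 counts in Neo against 140 in Fet, at least 23.2-fold lower, with an adjusted p of 0.153.

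Titin and the M-band genes gave 1 call in each line against Emb, Myom2. Myom2 (ENSMUSG00000031461, chromosome 8, 15057653 to 15133541, plus strand), the myomesin of fast fibres and heart, stood at 41.7, 55.1 and 7.54 CPM in iPax3 and 6.12, 75.8 and 158 in iPax7. In Emb it was at 0.773, 0.0572 and 0 CPM, in Fet at 12.1, 3.59 and 6.77, and in Neo at 0.0707, 0 and 2.41. All 6 iPax libraries lay above all Emb libraries. It rose by 6.99 ± 1.67 in iPax3 (adjusted p 0.00972) and by 8.19 ± 1.75 in iPax7 (adjusted p 0.00682), and both calls held when any 1 library was left out. Fet minus Emb was 4.66 ± 1.56 with an adjusted p of 0.0919, without overlap.

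Ttn, the molecular spring that spans the sarcomere from Z-disc to M-band, stood at 78.4, 95.03 and 105 CPM in iPax3, 7.62, 363 and 325 in iPax7, 51.3, 18.7 and 42.6 in Emb, 93.4, 141 and 95.1 in Fet, and 0.283, 7.997 and 8.73 in Neo. iPax3 replicate 3, low in most members, was the highest iPax3 library here. Neo lay below all Fet libraries, at -4.35 ± 1.14 with an adjusted p of 0.0628. Of the other myomesins, Myom1 was at 24.1, 21.9 and 29.8 CPM in Neo, where Myom2 and Myom3 were at most at 3.61 CPM. Per kilobase, Myom1 made up 91.9% of myomesin in Neo on average, against 8.33% in iPax3, 14.499% in iPax7 and 32.1% in Fet. Myom2 made up 59.6% in iPax3, 52.6% in iPax7, 19.3% in Fet and 2.55% in Neo.

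The Z-disc list holds alpha-actinins with their partners and the intermediate filament desmin, and 2 of its 8 genes were called, both in iPax7 minus Emb. Actn3 (ENSMUSG00000006457, chromosome 19, 4861216 to 4877909, minus strand), the alpha-actinin of fast fibres, stood at 11.2, 11.7 and 2.93 CPM in iPax3 and 27.4, 52.8 and 14.3 in iPax7. It was at 1.62, 0 and 0.0736 CPM in Emb, 0, 7.22 and 1.43 in Fet, and 38.6, 0.816 and 4.21 in Neo. It rose by 5.81 ± 1.8 in iPax7 against Emb (adjusted p 0.0421), and the call ended without any 1 iPax7 library or Emb replicate 2 or 3 (adjusted p 0.0555 to 0.109). Its level in iPax7 replicate 1 lay between those of the other 2 iPax7 libraries, unlike most members. Actn2, the form shared by all striated muscle, stood at 18.5, 20.98 and 1.26 CPM in iPax3, 4.51, 51.4 and 85.0 in iPax7, and 5.64, 0 and 21.04 in Emb, and was not called.

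Des (ENSMUSG00000026208, chromosome 1, 75360329 to 75368579, plus strand), the desmin that links Z-discs and is already made in myoblasts, stood at 53.9, 58.7 and 16.1 CPM in iPax3 and 29.9, 150 and 209 in iPax7. It was at 23.3, 23.3 and 43.8 CPM in Emb, 43.2, 53.6 and 38.4 in Fet, and 17.5, 6.20 and 26.5 in Neo. It rose by 2.10 ± 0.66 in iPax7 against Emb (adjusted p 0.0452), with iPax7 replicate 1 within the Emb range. The call ended without iPax7 replicate 2 or 3 or without any 1 Emb library (adjusted p 0.0624 to 0.161). Ldb3, a Z-disc scaffold, was at 18.4, 42.2 and 25.9 CPM in iPax7 and at 10.7, 13.9 and 2.64 CPM in iPax3, against 8.11, 0.0572 and 0 in Emb.

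Several Z-disc genes of mature fibres were near the limit of detection. Tcap, the titin cap, was at most at 1.15 CPM, in iPax7 replicate 2, with 0 counts in all 9 tissue libraries. Myoz2, a slow calsarcin, and Xirp1, a repair and actin-binding protein, had 0 counts in Emb. In iPax3 they were at least 12.3-fold and 16.5-fold higher and in iPax7 at least 27.9-fold and 20.5-fold higher. Their adjusted p were 0.116 and 0.0528 in iPax3, and 0.0765 and 0.0562 in iPax7. The folds pool the libraries of a group and need not hold in each. Myoz2 had 79, 36 and 0 counts in iPax3 and 1, 49 and 92 in iPax7. Xirp1 had 51, 80 and 23 counts in iPax3 and 3, 91 and 10 in iPax7. Myoz1, the fast calsarcin, ranged from 0 to 1.31 CPM.

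In the calcium-handling list, the voltage sensor rose in both lines against Emb, and the release channel fell from Fet to Neo. Cacna1s (ENSMUSG00000026407, chromosome 1, 136052750 to 136119822, plus strand), the pore of the skeletal voltage-gated calcium channel, stood at 3.99, 4.89 and 0.105 CPM in iPax3 and 1.47, 12.4 and 6.26 in iPax7. Emb held 0 counts of it in 3 libraries, Fet 0, 1.22 and 0.285 CPM, and Neo 0, 0 and 0.903 CPM. With 437 counts in iPax3 and 518 in iPax7, it was at least 46.8-fold and at least 102-fold higher than in Emb (adjusted p 0.0322 and 0.0269). The iPax3 call ended without iPax3 replicate 1 or 2 or Emb replicate 2 or 3 (adjusted p 0.0759 to 0.0771). The iPax7 call ended without iPax7 replicate 2 or 3 or Emb replicate 2 or 3 (adjusted p 0.0534 to 0.0691).

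Ryr1 (ENSMUSG00000030592, chromosome 7, 29003344 to 29125179, minus strand), the ryanodine receptor that the sensor opens, was present in every group. It stood at 37.4, 39.5 and 19.8 CPM in iPax3, 18.5, 121 and 137 in iPax7, 30.9, 51.1 and 68.2 in Emb, 74.4, 70.2 and 63.6 in Fet, and 13.3, 10.9 and 4.21 in Neo. All Neo libraries lay below all others. It fell by 2.85 ± 0.64 in Neo against Fet (adjusted p 0.0269), but the call ended without any 1 of the 6 libraries (adjusted p 0.0655 to 0.0967). The voltage sensor thus had 0 counts in Emb libraries in which its release channel stood at 30.9 to 68.2 CPM.

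Atp2a1, the fast calcium pump SERCA1, stood at 15.9, 10.4 and 3.29 CPM in iPax3, 0.659, 68.9 and 87.9 in iPax7, 7.73, 9.32 and 14.8 in Emb, 44.96, 20.96 and 14.8 in Fet, and 6.08, 2.45 and 8.73 in Neo. Casq2, the slow and cardiac calcium buffer of the reticulum, stood at 19.7, 30.4 and 0.606 CPM in iPax3, 0.733, 38.4 and 47.3 in iPax7, 7.80, 4.86 and 23.0 in Emb, 0, 7.74 and 8.77 in Fet, and 29.9, 26.3 and 39.7 in Neo. Neither was called. Ckm, the cytosolic muscle creatine kinase, which buffers ATP in fibres, reached at most 3.24 CPM, in iPax7 replicate 2, and had 0 counts in Emb. Its adjusted p against Emb was 0.0514 in iPax7, where it was at least 24.8-fold higher.

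Split by form, 9 members are fast isoforms and 11 are slow or cardiac ones. In iPax3 minus Emb, 2 of 9 tested fast members (Tnnt3, Mylpf) and 0 of 10 tested slow or cardiac members rose, where 9.34% of all genes were called as higher. In iPax7 minus Emb, 3 fast members (Tnnt3, Mylpf, Actn3) and 1 slow member (Tnni1) rose, where 8.51% of all genes were called as higher. Counts this small are not read as a difference from those shares. Median log2 differences against Emb were 2.44 for the fast and 1.03 for the slow or cardiac members in iPax3, beside 0.24 over all genes. In iPax7 they were 4.37 and 1.87, beside 0.36 over all genes. Members at 0 counts in Emb entered these medians at fitted values and not at bounds. Whether the lists differ was not tested.

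Beyond the 40 genes, 48 other contractile and excitation-contraction genes were counted, of which 42 were tested. In iPax3 minus Emb 5 of the 42 rose and none fell, where 9.34% of all genes were called as higher, and 5 of 42 is near that share. In iPax7 minus Emb 9 of the 42 rose and none fell, where 8.51% of all genes were called as higher. Jph2, a junctophilin that holds the reticulum to the surface membrane, rose by 7.38 ± 1.18 in iPax3 (adjusted p 0.000597) and by 7.47 ± 1.18 in iPax7 (adjusted p 0.000804). It stood at 102, 73.8 and 53.6 CPM in iPax3, 9.60, 118 and 115 in iPax7, and 1.08, 0.229 and 0.0736 in Emb, without overlap. Trim54, a ubiquitin ligase of the sarcomere, and Nrap, an actin-binding protein of nascent myofibrils, had 0 counts in Emb. Trim54 was at least 192-fold higher in iPax3 (adjusted p 0.00371) and at least 114-fold higher in iPax7 (adjusted p 0.00685). Nrap was at least 376-fold higher in iPax3 (adjusted p 0.00396) and at least 449-fold higher in iPax7 (adjusted p 0.0049). Flnc, the muscle filamin, rose by 2.41 ± 0.47 in iPax3 (adjusted p 0.00268).

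In the other comparisons fewer of the 42 were called. None was called between iPax7 and iPax3 or between iPax7 and Fet. Cmya5, a costamere protein, fell by 6.42 ± 1.72 in iPax3 against Fet (adjusted p 0.0324), where 5.68% of all genes were called as lower. In Fet minus Emb 4 genes rose, where 2.89% of all genes were called as higher, among them Cmya5, at least 88.2-fold (adjusted p 0.0184), Flnc, by 1.96 ± 0.46 (adjusted p 0.0276), and Casq1, the fast calsequestrin, at least 47.6-fold (adjusted p 0.032). In Neo minus Fet, Trim63, a ubiquitin ligase of muscle, was at least 26.03-fold lower (adjusted p 0.025).

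The members did not follow a single pattern over the 15 libraries. The correlation of a member's log2 CPM with the mean of the other members was highest for Tnni1 (Pearson r = 0.89), Mylpf (0.86) and Myoz2 (0.85). It was lowest for Mybpc2 (-0.35), Myl2 (-0.12), Myl3 (-0.06), Ckmt2 (-0.02) and Acta1 (0.07), of which Ckmt2 had no counts. These values describe libraries that share group, depth and sorting, and no p is given. Of 13884 other genes with at least 5 CPM on average in their highest group, those with a high r to the mean of the members included Lmod2 (0.885), a leiomodin, Lix1 (0.883), Slc26a7 (0.881), an anion transporter, and Col4a5 (0.877), a chain of basement membrane collagen. Over the 38 tested members, exon length and the fitted difference had Spearman correlations between -0.28 and 0.28 in the 7 comparisons.

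Single-cell sequencing then set adult satellite cells beside iPax3 cells, with 579 Sat cells (median 10765 UMIs) and 2931 iPax3 cells (median 11716 UMIs), 1 barcode being shared. Each sample was 1 library, so there is no test, and intervals cover counting error only. The 40 genes held 0.263% of UMIs in Sat and 0.579% in iPax3, which is 2630 CPM (95% exact Poisson interval 2595 to 2666) and 5791 CPM (5768 to 5814), a ratio of 2.202 (2.17 to 2.23). Of 38 members with enough UMIs to compare, 23 were at least 2-fold higher in iPax3, where 34.2% of 12727 genes were, and 8 were at least 2-fold lower, where 23.9% were. The median log2 ratio of the members was 2.03, beside 0.39 over all genes. Leaving out the tropomyosins gave 2100 and 3897 CPM.

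Barcodes with 1 to 100 UMIs, which hold free RNA, carried the same genes, and their levels are given beside those of the cells. Summed over the members they held 3427 CPM in the Sat library and 7731 CPM in the iPax3 library, more than the cells of either. In Sat, Acta1 was at 292 CPM in cells and 426 in these barcodes, Tnni2 at 264 and 307, Mylpf at 183 and 226, Ckm at 139 and 232, and Des at 471 and 554. Of the 579 Sat cells, 44 had endothelial markers above their satellite markers (median 8110 UMIs), and these held members at 2439 CPM. After thinning to 2000 UMIs per cell, Acta1 was seen in 40.9% of those 44 cells and in 38.3% of all Sat cells (88.1% unthinned). In the same order, Tnni2 was seen in 45.5 and 40.9%, Mylpf in 22.7 and 29.4%, Ckm in 20.5 and 24.2%, and Des in 34.1 and 59.2%. Pax7 stood at 110 CPM in the 44 cells and at 142 CPM in the 321 cells with endothelial markers under 5 UMIs. The 44 cells are therefore not a control free of Pax7 RNA. As CPM, the Sat levels of these 5 genes were thus no higher in cells than in the barcodes with 1 to 100 UMIs. In Sat, 85159 such barcodes held 491093 UMIs together, against 7906996 UMIs in the 579 cells. CPM gives a share and not the amount of free RNA in a cell barcode. Whether the Sat cells express these genes was therefore not tested.

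**Figure D4:**
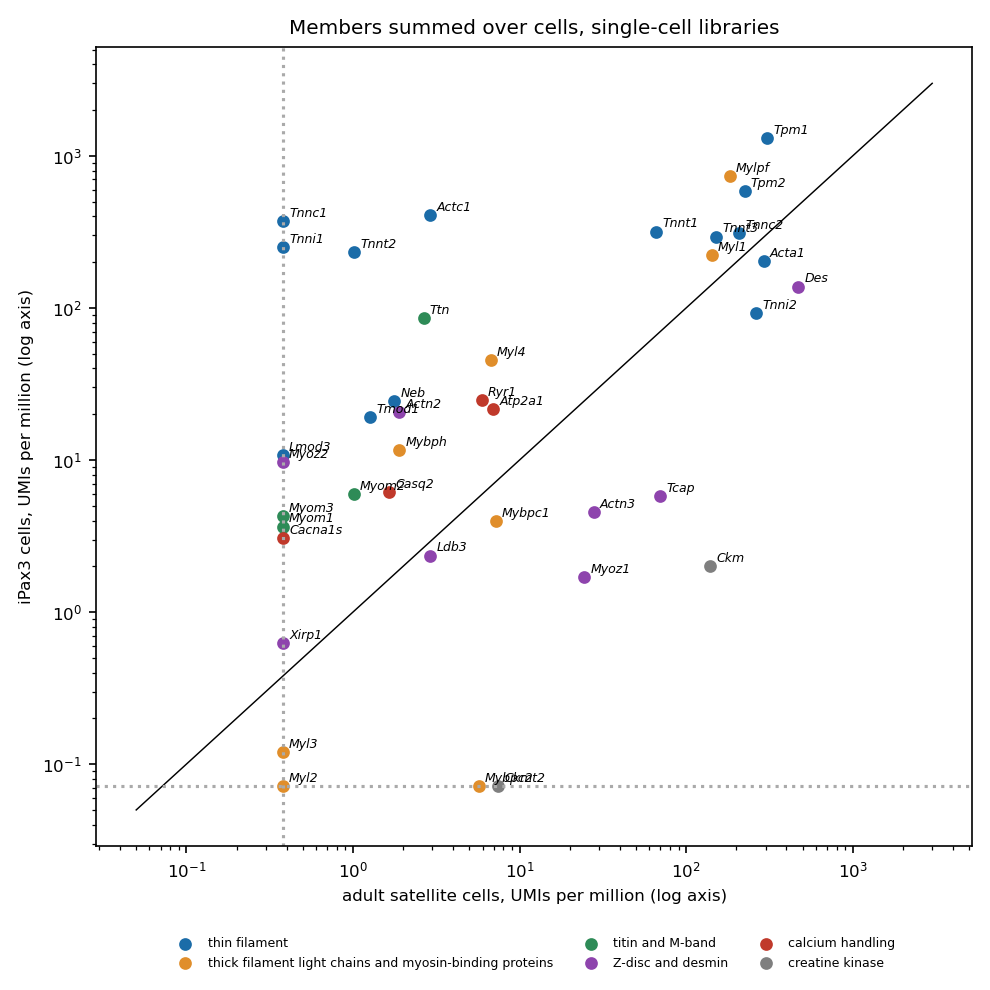
Summed level of each member in iPax3 cells (vertical axis) against adult satellite cells (horizontal axis), as CPM of UMIs on log axes, coloured by role. The diagonal marks equal levels, and members under 3 UMIs are drawn at the dotted floors; Actc1, Tnnt2, Tnni1 and Tnnc1 lie far above the diagonal, and Ckm, Tcap, Myoz1, Ckmt2 and Mybpc2 below it.

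The paralogs differed between the libraries in cells and in barcodes with 1 to 100 UMIs alike. The values below compare libraries, and whether they reflect expression by the cells was not tested. Actc1, Tnnt2, Tnni1 and Tnnc1 were low or at 0 in the Sat library. Actc1 was at 2.91 CPM in Sat and 407 in iPax3 (140 times, 93.3 to 221), and Tnnt2 at 1.01 and 233 CPM (230 times, 117 to 533). Tnni1 had 0 UMIs in the 579 Sat cells, which allows up to 0.635% of cells with a UMI. In iPax3 it was at 251 CPM, at least 538-fold higher by the lower end of the counting interval. Tnnc1 had 1 UMI in Sat and 373 CPM in iPax3, a ratio of 2953 with a counting interval of 530 to 116655. In the iPax3 library the barcodes with 1 to 100 UMIs held more of each than the cells, with Actc1 at 509 CPM, Tnnt2 at 412, Tnni1 at 339 and Tnnc1 at 531. In the Sat library those barcodes held 6.11, 18.3, 8.15 and 12.2 CPM of the same genes, which rest on 3, 9, 4 and 6 UMIs.

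Genes of assembled sarcomeres also differed between the libraries. Ttn was at 2.66 CPM in Sat and 85.8 in iPax3 (32.3 times, 21.1 to 52.2). Lmod3, Myoz2, Myom3, Myom1 and Cacna1s had 0 UMIs in Sat. By the lower ends of their counting intervals they were at least 22.9-, 20.6-, 9.12-, 7.73- and 6.45-fold higher in iPax3. Ryr1 was at 5.94 and 24.6 CPM, and Atp2a1 at 6.96 and 21.6 CPM. In the iPax3 barcodes with 1 to 100 UMIs, Ttn was at 56.4 CPM, Ryr1 at 18.02 and Atp2a1 at 14.3, all below the cells, while Lmod3 was at 15.7 CPM against 10.7 in the cells. In the other direction, Ckm was at 139 CPM in Sat and 2.02 in iPax3 (0.0145 times), Tcap at 69.7 and 5.77, Actn3 at 28.0 and 4.57, and Myoz1 at 24.4 and 1.71. Mybpc2 and Ckmt2 had 0 UMIs in the iPax3 cells. By the upper ends of their counting intervals they were there at most 0.0162 and 0.0123 times their Sat levels. Ckm, Tcap, Actn3, Myoz1, Mybpc2 and Ckmt2 were in Sat also present in the barcodes with 1 to 100 UMIs, Tcap at 69.2 CPM and Myoz1 at 24.4 CPM.

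Within iPax3, the members were concentrated in cells with Myog. At least 1 Myog UMI was found in 1517 of 2931 cells (51.8%), whose median depth was 13160 UMIs against 10724.5 in the others. The members stood at 7892 CPM in cells with Myog and 2877 CPM in cells without. All 36 members with at least 20 UMIs were higher in cells with Myog, 34 of them at least 2-fold, with a median ratio of 3.93. The 2 below 2-fold were Tpm1 (1.45) and Tpm2 (1.72). The share of all genes that were higher in cells with Myog was not computed, so these counts have no background beside them. Actc1 was at 4.60 times, Tnni1 at 4.56, Mylpf at 4.62, Neb at 5.03, Myl1 at 5.004 and Cacna1s at 5.38. At 2000 UMIs per cell, the median number of members seen was 6 in cells with Myog and 4 in cells without, and the 90th percentile was 15 and 6. The 5% of iPax3 cells with most member UMIs held 28.9% of them.

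Set against the barcodes with 1 to 100 UMIs of the same library, 17 of 23 members with at least 20 UMIs in both were higher in cells with Myog, 7 of them at least 1.5-fold, with a median ratio of 1.15. The highest were Atp2a1 and Neb (both 2.202), Ttn (2.15), Ryr1 (1.89) and Des (1.87), while Mylpf (1.01) and Tnnc1 (0.9998) were level with these barcodes and Tnnt2 (0.804) was lowest. In cells without Myog all 23 were below, with a median of 0.295. As CPM, levels of these 23 members in those cells are thus under those of the barcodes with 1 to 100 UMIs. How much of them is free RNA was not tested. In Sat, 0 of 12 members with at least 20 UMIs in both exceeded the barcodes with 1 to 100 UMIs in the 431 cells with a Pax7 UMI (median ratio 0.767). In the other 148 cells 5 of 12 did (median 0.971). For none of these sets of cells was the share of all genes above or below the barcodes with 1 to 100 UMIs computed.

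**Figure D5:**
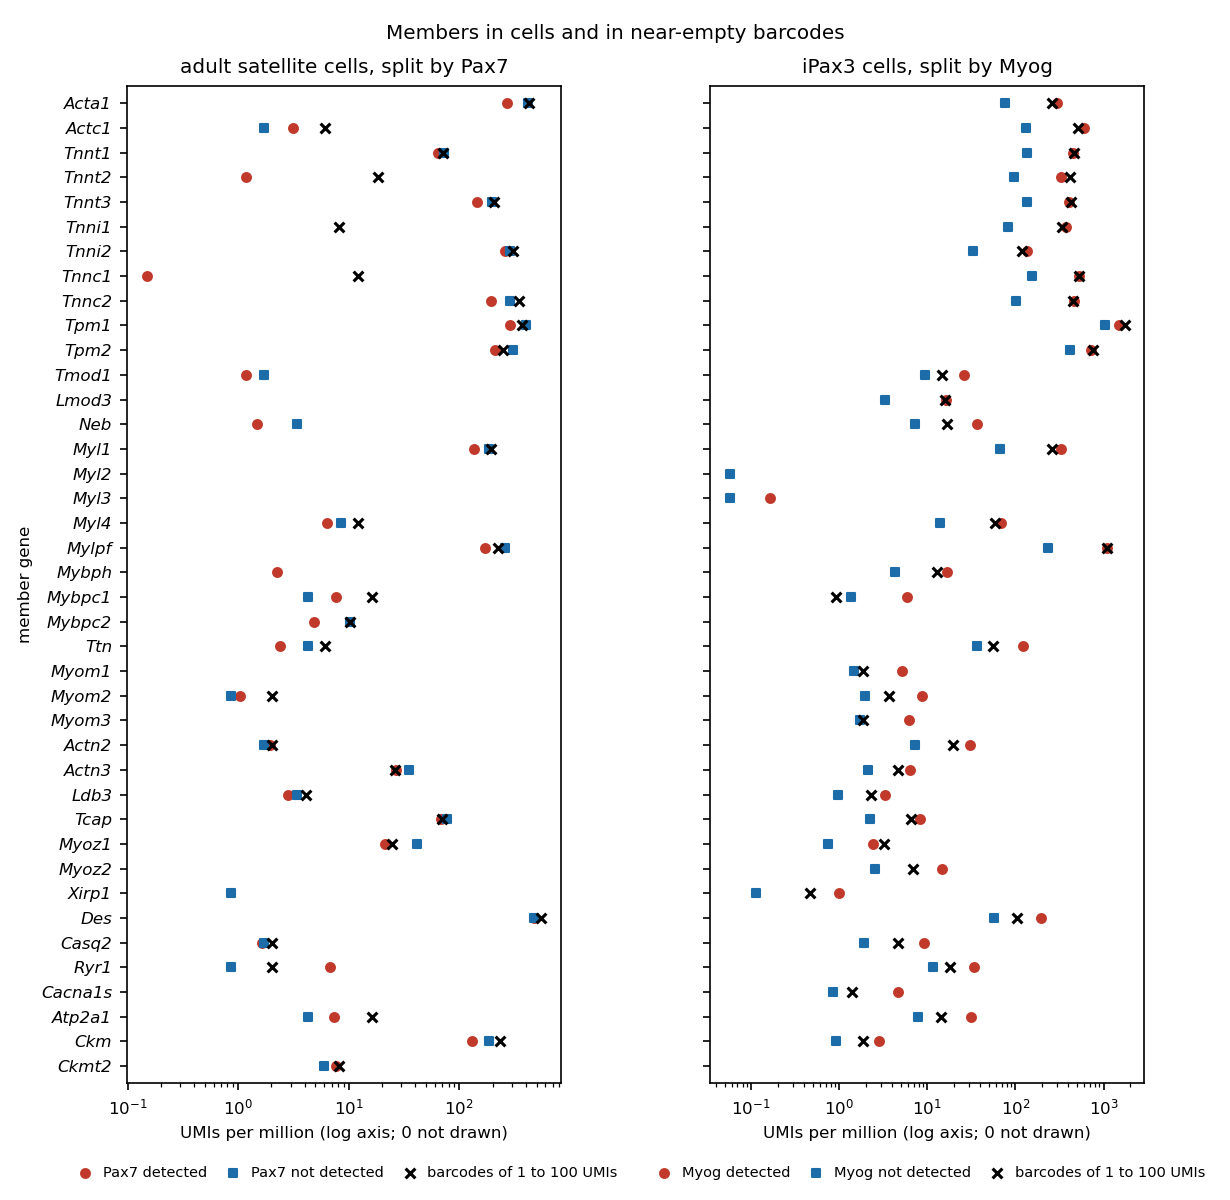
Level of each member (rows) in adult satellite cells with and without a Pax7 UMI (left) and iPax3 cells with and without a Myog UMI (right), beside barcodes of 1 to 100 UMIs (crosses), as CPM of UMIs on a log axis with levels of 0 not drawn. Squares of iPax3 cells without Myog lie left of the crosses for all 23 members compared, and circles of cells with Myog lie at or near them.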

How the data were processed

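Per the submitters' processing notes, bulk reads were handled with CASAVA 1.8, HISAT2 2.0.2 and Subread featureCounts 1.4.6 on mm10, and single cells with Cell Ranger 2.2.0. The deposited bulk files hold read counts per gene, and the deposited matrices hold UMI counts per barcode. Which annotation and which strand option were used, and how reads with several matches were treated, are not given in the sources used here. Reads of paralogs and of overlapping genes may therefore be split or shared.

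Genes were matched to GENCODE M21 (GRCm38), 47223 of 47728 identifiers. The 40 members and all gene lists were chosen with earlier results of these data known. All 15 bulk libraries entered 1 edgeR 4.0.16 quasi-likelihood fit (R 4.3.3, limma 3.58.1; filterByExpr, TMM, robust, 1 mean per group). The 7 comparisons were adjusted by Benjamini-Hochberg over 17571 genes at 0.05. An adjusted p is from this fit unless DESeq2 (1.42.0) is named. CPM are counts scaled to TMM-adjusted library totals, and log2 CPM used a prior count of 2. After a log2 difference, ± is the SE (its size divided by the root of F), and elsewhere the SD. Counts differed between replicates beyond counting error. In simulated counts for iPax3 minus Emb (17126 genes), the test recovered 10% of 100 genes changed 4-fold and 29% of 100 changed 16-fold, and called 0.00591% of unchanged genes, so a gene not called may still differ.

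Levels per library were given for members with the smallest adjusted p and for isoform families, and full statistics for up to 4 members per comparison and direction. Up to 3 other contractile genes per direction and the 5 most similar genes were to be named, of which 1 is not reported here, and a further case is given where a result turns on it. Cells were barcodes above 10% of the 99th percentile of the 3000 largest, with at least 500 UMIs and under 10% mitochondrial UMIs. No doublet caller was run and none was removed. Cells were thinned to 2000 UMIs, which left out none. Another deposited matrix joined the same cells, so it was not taken as a replicate. Of the cell barcodes, 573 of 579 in Sat and 2769 of 2931 in iPax3 were among as many largest barcodes of its matching part. The median ratio of UMIs per cell there to those used here was 0.699 in Sat and 3.47 in iPax3. Analyses in Python 3.11.15 used numpy 2.4.6, scipy 1.17.1, pandas 2.3.3 and matplotlib 3.10.9. Alternatives were RLE scaling, no filter, DESeq2, a replicate term, leaving out each library, other cell filters and shares without exon length.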

Additional observations from a re-analysis of the deposited data

How the results depend on the processing

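Between iPax7 and iPax3, no member was called under any alternative run. Scaling by RLE changed none of the 7 counts. DESeq2 called 8 members in iPax3 minus Emb, 14 in iPax7 minus Emb, 4 in iPax3 minus Fet, 3 in iPax7 minus Fet, 2 in Fet minus Emb and 10 in Neo minus Fet, against 5, 7, 1, 0, 0 and 4 in edgeR. Leaving out each library in turn gave 3 to 12 members in iPax3 minus Emb, 3 to 12 in iPax7 minus Emb, 0 to 4 in iPax7 minus Fet, 0 to 9 in Fet minus Emb and 0 to 2 in Neo minus Fet. Without iPax7 replicate 1 and iPax3 replicate 3 together, an alternative chosen after seeing the data, 6 were called in iPax7 minus Fet. Replicate numbers did not pair the samples (correlations of same-numbered deviations -0.331 to 0.077), and a replicate block gave 3 members in iPax3 minus Emb, 4 in iPax7 minus Emb and 2 in Neo minus Fet. Without the low-count filter, Mylpf lost its call in iPax3 minus Emb, Tnnt3 in iPax7 minus Emb (adjusted p 0.0508) and Acta1 and Actc1 in Neo minus Fet, where Tnni1 gained one. The members that DESeq2 called beyond edgeR in Neo minus Fet were Tnnt1, Tnnt2, Tnni1, Lmod3, Mybph and Ttn. The share of all genes called under these alternatives was not computed, and the cause of these changes was not tested. In the joined matrix, also added after seeing the data, the same barcodes gave a ratio of member levels, iPax3 over Sat, of 2.56 in place of 2.202. Without division by exon length, Tnni2 was 42.6% of troponin I in Fet in place of 63.5%. Fet replicate 1, with 516504 counts, limits what is detectable in Fet, and single-cell samples of 1 library each allow no test.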
